A study of Danio rerio with 2 samples.

Results

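Connexins are the proteins of gap junctions, and their genes were examined here in cells sorted from zebrafish embryos that carry GFP under the mitfa promoter. The members were all rows of the deposited gene lists whose symbol was cx followed by a digit, or gja, gjb, gjc, gjd or gje followed by a digit. This gave 32 of 25107 genes. Both libraries came from Tg(mitfa:GFP) embryos at 24 hours post fertilization (hpf), of which 1 held the cells sorted as mitfa:GFP high and 1 the cells sorted as mitfa:GFP low. The mitfa promoter is active in pigment cell precursors, so GFP marks those cells and whatever other cells carry the transgene product, and the sort can set the share of each cell type in a library. With 1 library per group there was no replicate, so no test between the groups was possible and every interval below is a 95% interval for counting error only.

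Connexin subunits form a hexamer in the membrane of a cell, and such hexamers of neighbouring cells dock into a channel through which ions and small molecules pass. Cells with different connexins can form channels of different permeability or fail to couple. In adult zebrafish, gja5b (the leopard gene, also called cx41.8) and cx39.4 (luchs) are known for their part in the stripe pattern, in which melanophores and xanthophores contact each other through gap junctions.

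The cell table deposited by the authors listed 2374 high and 2361 low cells with 17545390 and 14826056 UMIs (unique molecular identifiers, 1 per captured transcript), at medians of 6858.5 and 5732 UMIs per cell. Barcode sequences of the listed cells overlapped between libraries in 1 case. The 10 clusters of that table were named here from marker genes where at least 3 markers of 1 class were highest there and outnumbered every other class. By this count cluster 0 was neural progenitor-like, 2 mesenchyme-like, 3 xanthophore-like, 4 neuron-like, 5 retina-like, 6 melanophore-like, 7 epidermis-like, 8 muscle-like and 9 islet-like, while cluster 1 stayed unnamed. Cluster 3 held 324 high and 78 low cells, cluster 6 held 197 and 22, and cluster 9 held 19 low cells and no high cells. The clusters were made by the authors from gene expression in the same cells, with connexins not set apart, so a level in a cluster against the rest is a description.

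Of the 32 connexins, 26 had at least 1 UMI and 6 had none in either library. In all, 12491 connexin UMIs were counted, and cx43.4, cx30.3 and cx43 made up 98.1% of them. Levels are given as CPM, that is, summed UMIs of a gene per 1000000 summed UMIs of the same cells. The assay tags the 3′ end of each transcript once, so a count does not grow with transcript length. Each of the 3 abundant genes had its own distribution over clusters, in both libraries: cx30.3 was almost confined to the xanthophore-like cluster, cx43 was highest in the retina-like cluster, and cx43.4 was widespread but low in both pigment clusters. Only 4 members reached 50 UMIs in all cells, with cx35.4 as the fourth. Of these 4, cx30.3 and cx43 met the rule for a leading cluster, which asked for the same highest cluster in both libraries at 2-fold or more above the next. Over all 12295 genes with at least 50 UMIs, 16.7% met it.

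**Figure D1:**
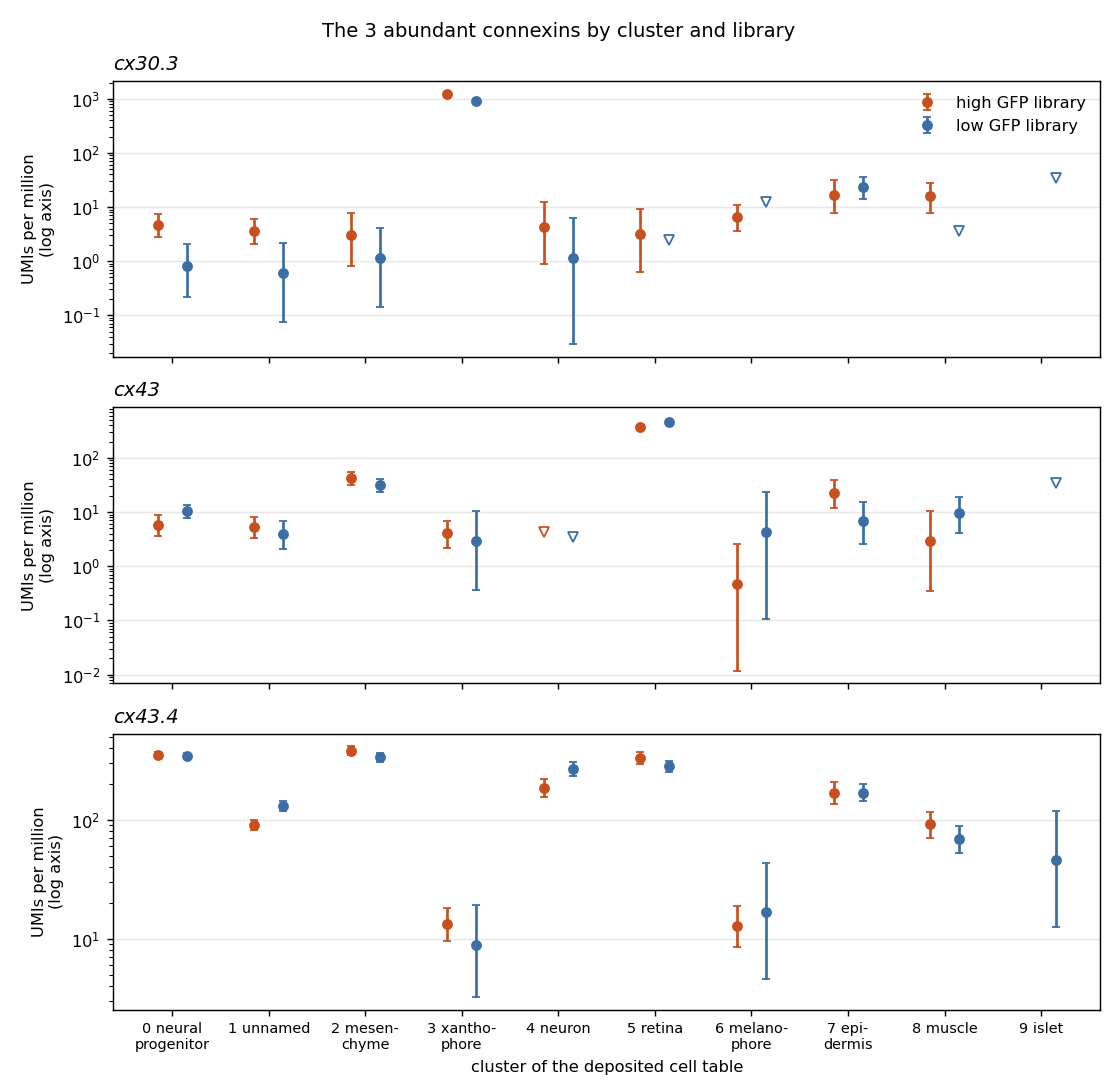
Level of cx30.3, cx43 and cx43.4 (CPM, log axis) in each cluster, with the high library left of the low library and exact Poisson 95% intervals. Open triangles stand at the level of 3 UMIs where a cluster had 0 UMIs, and the high library had no cells in cluster 9. cx30.3 stood at 1213 and 925 CPM in cluster 3 against at most 23.2 CPM elsewhere, and cx43.4 was lowest in clusters 3 and 6.

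cx30.3 (ENSDARG00000042707, gjb8 in RefSeq) encodes a beta-type connexin. In the xanthophore-like cluster 3 (xanthophores are the yellow pigment cells), it had 3890 UMIs in the high library and 626 in the low library, or 1213 CPM (1175 to 1251) and 925 CPM (854 to 1000). The next cluster was the epidermis-like cluster 7 in both libraries, at 16.9 CPM (7.71 to 32.0) in the high and 23.2 CPM (14.1 to 35.8) in the low library. Cluster 3 therefore exceeded the next by 71.9-fold (37.8 to 157) in high cells and by 39.93-fold (25.6 to 65.8) in low cells. Of all cx30.3 UMIs, 98.1% in the high and 95.6% in the low library fell in cluster 3. It was among the 10 genes with the highest fold in that cluster, so its level there is no finding independent of the cluster. Of the 134 genes that led cluster 3 by the same rule, cx30.3 ranked 14 by the smaller of its 2 margins.

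Within cluster 3 the transcript was common but uneven. A cx30.3 UMI was found in 274 of 324 high cells (84.6%) and in 56 of 78 low cells (71.8%). Thinning every cell to 2000 UMIs, which left 308 and 76 cells, put these shares at 73.4% and 58.8%. The median was 9 UMIs per high cell and 5.5 per low cell, the upper quartiles were 19 and 11.75, and single cells reached 58 and 34 UMIs. For comparison, 2.35% of high and 0.300% of low neural progenitor-like cells had a cx30.3 UMI, at median depths of 4447 and 4559 UMIs against 9964 and 9142 UMIs in cluster 3. At 10 or more UMIs there were 151 high and 28 low cells, while 50 and 22 cells had none.

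**Figure D2:**
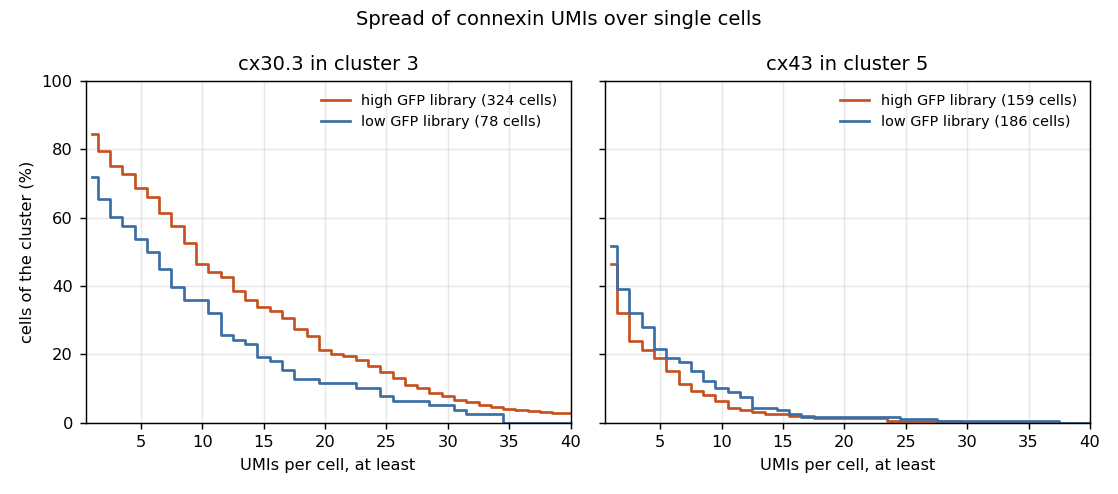
Share of cells (%) with at least the given number of UMIs per cell, for cx30.3 in cluster 3 and for cx43 in cluster 5, in the high and the low library. The cx30.3 curve of the high library began at 84.6% and that of the low library at 71.8%, while cx43 began at 46.5% and 51.6% and dropped faster.

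Cells of cluster 3 with many and with no cx30.3 UMIs also differed in xanthophore genes. The pteridine enzyme gene gch2 was at 31276 CPM in the 151 high cells with at least 10 cx30.3 UMIs and at 8720 CPM in the 50 high cells with none. In the low library it was at 29630 CPM in 28 such cells and at 5089 CPM in 22 cells with none. The paired-box factor pax7a, which acts in xanthophore development, stood at 938 against 206 CPM in high cells and at 873 against 225 CPM in low cells. A second factor, pax7b, lay closer, at 679 against 402 CPM in high cells and 574 against 415 CPM in low cells. The xanthophore genes xdh and aox5 were also higher in the cells with many cx30.3 UMIs in both libraries. A further xanthophore gene, csf1ra, was at 41.2 against 8.94 CPM in high cells, from 73 and 3 UMIs. In low cells csf1ra was at 46.9 against 28.9 CPM, from 13 and 5 UMIs, with intervals that overlapped. Values of neural crest genes lay in both directions, but their intervals overlapped in both libraries, apart from sox10 in high cells (807 to 893 against 549 to 723 CPM). In low cells crestin and tfap2a lay further apart than pax7b, whose intervals there also overlapped. The crest factor gene sox10 was at 849 against 632 CPM in high cells and 880 against 779 CPM in low cells, while foxd3 was at 215 against 235 CPM and 372 against 502 CPM. The crest marker crestin was at 99.9 against 98.3 CPM in high and 141 against 260 CPM in low cells, and tfap2a at 125 against 137 CPM and 137 against 225 CPM. The crest gene tfap2c was at 20.9 against 8.94 CPM in high cells, from 37 and 3 UMIs. In low cells tfap2c was at 14.4 against 17.3 CPM, from 4 and 3 UMIs. In the high library the cells without cx30.3 also carried genes of other cell types, with 164 CPM of the neuronal gene elavl3 and 74.5 CPM of the leukocyte gene lcp1, against 18.1 and 0 CPM in the cells with many. In the low library elavl3 had 1 UMI on either side and lcp1 had 0. The cells with at least 10 UMIs were deeper, at medians of 11357 against 7259 UMIs in the high and 10405 against 8188 in the low library, and the part of depth and of other cell types in these differences was not tested.

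Outside cluster 3, cx30.3 was rare and often sat in single cells. In the melanophore-like cluster 6, 10 of the 14 UMIs of the high library came from 1 cell, and the 22 low cells had none. In the muscle-like cluster 8, 1 high cell held 10 of 11 UMIs, and the low library had none. In the epidermis-like cluster 7, 5 of 76 high cells held 9 UMIs and 7 of 129 low cells held 20, of which 1 low cell held 11. Without its richest cell the level in cluster 7 was 9.37 CPM in the high library and 10.4 CPM in the low library.

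The counts of gch2 were set beside these UMIs. Its level outside cluster 3 was not even, at 117 CPM in cluster 0 and 1016 CPM in cluster 6 of the high library. The part of free RNA, that is, RNA from outside the cell, in these counts was not tested. Cluster 3 had 4.63 cx30.3 UMIs per 100 gch2 UMIs in high cells and 4.55 in low cells. The neural progenitor-like cluster 0 of the high library had 18 cx30.3 UMIs in 18 cells with 453 gch2 UMIs, or 3.97 per 100. In the same library clusters 1 and 2 had 1.86 and 1.23 per 100, beside 807 and 324 gch2 UMIs. Its clusters 4, 5 and 8 had 3.61, 3.13 and 3.58 per 100, from 3, 3 and 11 cx30.3 UMIs. In the low library clusters 0, 1, 2 and 4 had 4.40, 1.16, 7.14 and 6.25 per 100, from 4, 2, 2 and 1 cx30.3 UMIs. Its clusters 5, 6, 8 and 9 had no cx30.3 UMI. All clusters but 3 together had 1.76 per 100 in high and 5.93 in low cells. With cluster 7 left out as well, these were 1.60 and 1.88. Cluster 7 of the low library had 20 cx30.3 UMIs beside 11 gch2 UMIs, and its 2 cells with at least 3 cx30.3 UMIs had no gch2 UMI. The cell of high cluster 6 with 10 cx30.3 UMIs carried 151 gch2 UMIs, and the cell of high cluster 8 with 10 cx30.3 UMIs carried 261 of that cluster's 307 gch2 UMIs. Cluster 6 of the high library had 2193 gch2 UMIs and 0.638 cx30.3 UMIs per 100 of them.

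cx43 (ENSDARG00000041799, gja1b in RefSeq) encodes the alpha-type connexin whose mutants in zebrafish have short fins. Its highest level was in the retina-like cluster 5, with 357 UMIs or 370 CPM (333 to 411) in 159 high cells and 558 UMIs or 463 CPM (425 to 503) in 186 low cells. The mesenchyme-like cluster 2 came next, at 41.83 CPM (31.6 to 54.3) and 31.0 CPM (23.3 to 40.5). The lead over cluster 2 was 8.85-fold (6.66 to 12.0) in high cells and 14.9-fold (11.3 to 20.1) in low cells. cx43 ranked 4 among the 37 genes that led cluster 5, and it was among the 10 genes with the highest fold there. Neuron-like cells of cluster 4 had 0 UMIs in 148 high and 197 low cells. Taken as 3 UMIs over the cluster's total, the limit was 4.27 and 3.42 CPM. The melanophore-like cluster had 1 UMI in 197 high cells and 1 in 22 low cells.

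Only part of the retina-like cells carried cx43, with a UMI in 74 of 159 high cells (46.5%) and in 96 of 186 low cells (51.6%). Thinned to 2000 UMIs the shares were 35.5% and 38.4%. Single cells reached 29 and 37 UMIs, and 10 high and 19 low cells had at least 10. This spread was compared with 7 melanin genes (dct, tyrp1a, tyrp1b, tyr, pmela, oca2 and slc24a5), a comparison added after the levels were seen. Melanin genes are used by melanophores of the neural crest and also by the pigmented epithelium of the eye.

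In cluster 5 the cells with at least 3 melanin gene UMIs had the highest cx43 level. There were 10 of them in each library, all 10 with a cx43 UMI, and they held between 5 and 29 cx43 UMIs each in the high library and between 4 and 37 in the low library. Their level was 2172 CPM (1815 to 2579) in high cells, against 247 CPM (214 to 285) in the 129 high cells with no melanin UMI. In the low library it was 2266 CPM (1925 to 2649), against 347 CPM (313 to 385) in 168 cells. The log2 ratio was 3.13 (2.80 to 3.46) in high and 2.71 (2.43 to 2.98) in low cells. The 10 cells held 26.8% of all cx43 UMIs of the high library and 22.6% of those of the low library. Median depth was 6369 against 5438 UMIs in high cells and 6492 against 6275 in low cells.

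The forebrain and eye gene six3b and cx43.4 did not follow cx43 in this split. six3b was at 134 against 484 CPM in high and at 144 against 437 CPM in low cells. cx43.4 stood at 284 CPM (165 to 455) against 330 CPM in high cells and at 188 CPM (99.9 to 321) against 294 CPM in low cells, with intervals of the ratio that held 0 on the log2 scale. With these cells taken out, cluster 5 still led for cx43 by the 2-fold rule.

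**Figure D3:**
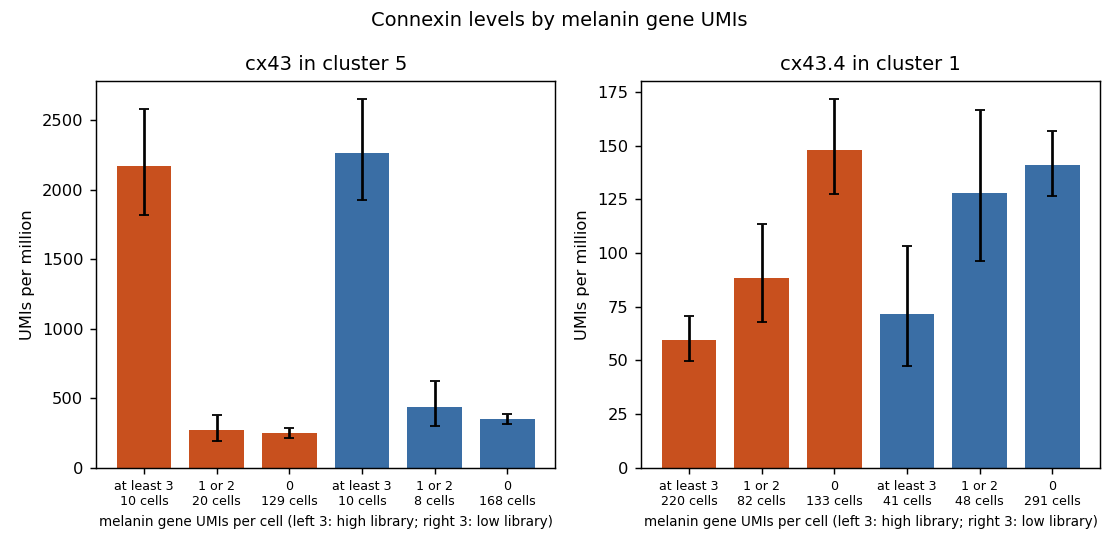
Level (CPM, bars from 0 with exact Poisson 95% intervals) of cx43 in cluster 5 and of cx43.4 in cluster 1, by the number of melanin gene UMIs per cell, with the high library left. cx43 was at 2172 and 2266 CPM in the cells with at least 3 melanin UMIs, and cx43.4 was at 59.6 and 71.5 CPM in such cells of cluster 1.

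In the mesenchyme-like cluster 2, the cx43 level was higher in a few cells with endothelial genes, but most cx43 UMIs lay outside these cells. Cells with at least 2 UMIs of the endothelial genes cdh5 and kdrl numbered 8 in the high and 6 in the low library, and they had 18 UMIs in 3 cells and 17 UMIs in 5 cells. This was 265 CPM (157 to 418) in high cells against 31.0 CPM (21.9 to 42.5) in the 187 cells with neither gene. In the low library it was 562 CPM (328 to 900) against 21.5 CPM (15.0 to 29.9) in 248 cells. The cells with neither gene held 38 of the 56 high UMIs, in 19 cells, and 35 of the 54 low UMIs, in 21 cells. The mesenchymal gene twist1a had 1 UMI in the 8 high cells and 0 in the 6 low cells, against 432 and 375 CPM in the others. These few cells were picked out after the levels were seen, and 1 high cell held 11 of the 18 UMIs and 1 low cell 9 of the 17.

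cx43.4 (ENSDARG00000007099, gjc4b in RefSeq), a gamma-type connexin that acts in the embryonic organ that sets left and right, had the most UMIs, 2908 in the high and 3542 in the low library. It was found in 50.6% of high and 62.4% of low cells. In the high library the order of clusters was mesenchyme-like (381 CPM, 349 to 415), neural progenitor-like (351 CPM, 333 to 370) and retina-like (330 CPM, 295 to 368), whose intervals overlapped. Below these came neuron-like (185 CPM, 155 to 220) and epidermis-like (169 CPM, 136 to 207), then muscle-like (91.6 CPM, 70.5 to 117) and cluster 1 (90.7 CPM, 81.7 to 100.4), again with overlap in each pair. The 2 pigment clusters were lowest, with 13.4 CPM (9.70 to 18.1) in cluster 3 and 12.97 CPM (8.62 to 18.7) in cluster 6.

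The low library gave much the same order. Neural progenitor-like (346 CPM, 330 to 363) and mesenchyme-like cells (335 CPM, 309 to 364) were highest, followed by retina-like (281 CPM, 252 to 313) and neuron-like cells (268 CPM, 234 to 304). Epidermis-like cells (169 CPM, 143 to 199), cluster 1 (131 CPM, 119 to 144) and muscle-like cells (68.9 CPM, 52.3 to 89.0) followed. Among these neighbours, the intervals of neuron-like and epidermis-like cells and those of cluster 1 and muscle-like cells did not overlap, while the others did. Cluster 6 (16.9 CPM, 4.59 to 43.2) and cluster 3 (8.86 CPM, 3.25 to 19.3) were again lowest, beside 46.3 CPM (12.6 to 118) in the 19 islet-like cells. The share of cells with a cx43.4 UMI after thinning to 2000 UMIs ran from 2.06% in cluster 3 to 49.03% in cluster 2 of the high library, and from 1.70% in cluster 3 to 47.1% in cluster 0 of the low library.

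Cluster 1, the unnamed cluster, lay between these extremes and was split by the same 7 melanin genes. Its 10 leading genes included foxd3, alx4a and ednrab. Of the 5 crest markers in the naming list (sox10, foxd3, crestin, tfap2a and tfap2c), only 1 was highest in cluster 1. Another 3 were highest in cluster 6 and 1 in cluster 3, and 2 of 4 iridophore markers were highest in cluster 1. cx43.4 was lower in its melanin-positive cells. With at least 3 melanin UMIs it was at 59.6 CPM (49.8 to 70.7) in 220 high cells, against 148 CPM (127 to 171) in 133 high cells with none. In the low library it was at 71.5 CPM (47.5 to 103) in 41 cells, against 141 CPM (127 to 157) in 291 cells. The log2 ratio was -1.31 (-1.65 to -0.98) in high and -0.98 (-1.59 to -0.42) in low cells. Cells with 1 or 2 melanin UMIs were at 88.4 CPM (67.6 to 114) in the high and 128 CPM (96.0 to 167) in the low library. The melanin-positive cells were the deeper ones, with medians of 9716 against 8784 and 9449 against 8170 UMIs, and at 2000 UMIs per cell 10.5% against 24.96% of high and 12.6% against 23.8% of low cells kept a cx43.4 UMI.

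The other connexins seen in cluster 1 were sparse. cx43 had 22 UMIs in 7 high and 13 UMIs in 6 low cells, of which 1 high cell held 14. cx30.3 had 15 UMIs in 11 high and 2 UMIs in 2 low cells. In the high library, cells with at least 3 melanin UMIs held 18 cx43 and 14 cx30.3 UMIs, and the 133 cells with none held 0. In the low library such cells held 0 of both, and the 291 cells with no melanin UMI held 12 cx43 and 2 cx30.3 UMIs. gja5b had 3 UMIs in 3 high cells and none in low cells.

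Connexins at low counts are shown by their UMIs, and those named here were picked after their counts were seen. cx44.2 (gjc4a.1), a gamma-type relative of cx43.4, had 11 UMIs in the high library, all 11 in 9 cells of the epidermis-like cluster, and 15 in the low library, of which 13 lay in 10 such cells. That was 20.6 CPM (10.3 to 36.9) in the high and 15.0 CPM (8.01 to 25.7) in the low library. It met the leading-cluster rule once the minimum was lowered to 20 UMIs. cx39.9 (gja2) had 5 UMIs in 5 high cells and 5 UMIs in 5 low cells, and all of them were muscle-like.

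The delta-type connexins known from electrical synapses were seen mainly in neuron-like cells. gjd2b had 7 of its 9 high UMIs and 6 of its 10 low UMIs in cluster 4, from 4 and 3 cells. gjd1a had 2 of 3 high UMIs and 7 of 7 low UMIs there, from 2 and 6 cells. The lens connexins gja3, gja8a and gja8b had 2, 1 and 3 UMIs in the high and 0, 1 and 4 UMIs in the low library. cx28.8 with 4 UMIs and cx30.9 with 2 were seen in epidermis-like cells of the low library alone, and such counts are at or near the floor of 3 UMIs used here. cx35.4 was spread over clusters, with 28 high and 26 low UMIs and no more than 6.32 CPM in any cluster.

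**Figure D4:**
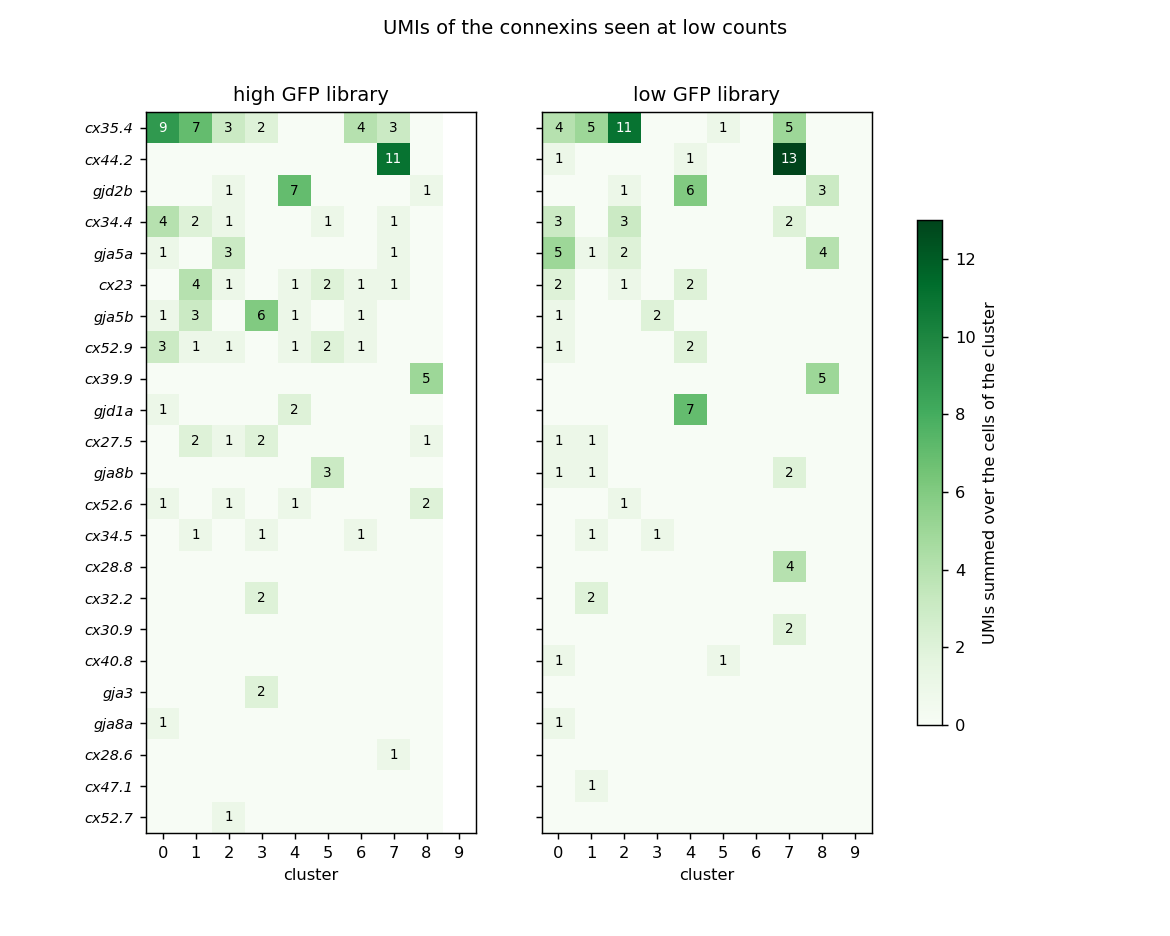
UMIs summed over the cells of each cluster (numbers and green shade) for the 23 connexins other than cx30.3, cx43 and cx43.4 that had a UMI, in the high library (left) and the low library (right). cx44.2 stood in cluster 7 with 11 and 13 UMIs, cx39.9 in cluster 8 with 5 and 5, and gjd2b in cluster 4 with 7 and 6. Cluster 9 had no cells in the high library.

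The connexins known from adult stripe patterning were near or at 0. gja5b (ENSDARG00000069450) had 12 UMIs in 12 high cells and 3 UMIs in 3 low cells. Of these, 6 in the high and 2 in the low library lay in the xanthophore-like cluster, at 1.87 CPM (0.686 to 4.07) and 2.95 CPM (0.358 to 10.7). The melanophore-like cluster had 1 high UMI and no low UMI. The level over all cells was 0.684 CPM in high and 0.202 CPM in low cells, and the interval of the log2 ratio (1.76, -0.13 to 4.22) held 0. cx39.4 (ENSDARG00000070357) had 0 UMIs in both libraries. Taken as 3 cells of the total, the limit this allows on the share of cells with a UMI was 0.126% of 2374 high cells and 0.127% of 2361 low cells. In the xanthophore-like cluster the limit was 0.926% of 324 and 3.85% of 78 cells, and in the melanophore-like cluster 1.52% of 197 and 13.6% of 22 cells. The other 5 connexins with no UMI were cx36.7, known for its role in the heart, cx28.1, cx28.9, cx31.7 and cx32.3.

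Few cells had UMIs of more than 1 connexin gene. This was the case for 9.0% of high cells (201 with 2 genes and 12 with 3 or more) and for 8.3% of low cells (185 and 10). The retina-like cluster stood highest, at 39.0% of 159 high and 45.2% of 186 low cells. After each cell was thinned once at random to 2000 UMIs, these became 17.97% of 128 and 15.4% of 156 cells, while all cells together fell to 2.4% and 2.2%. In that cluster cx43 and cx43.4 shared 60 high and 84 low cells, or 37.7% and 45.2%, where the product of their shares was 29.6% and 34.1%. At equal depth the joint shares were 16.4% and 14.8%, beside products of 14.96% and 15.12%. In the xanthophore-like cluster cx30.3 and cx43.4 shared 16 high and 2 low cells, and at equal depth 0.78% and 0.37% of cells, beside products of 1.51% and 1.00%.

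Over all listed cells, connexin UMIs summed to 7485 in the high and 5006 in the low library, or 427 CPM (417 to 436) and 338 CPM (328 to 347). The log2 ratio of high over low was 0.34 (0.29 to 0.39). Of the 4 connexins with at least 50 UMIs, cx30.3 was the 1 that passed 2-fold. It was at 226 CPM (219 to 233) in high and 44.18 CPM (40.9 to 47.7) in low cells, a 5.12-fold difference. Of all genes with at least 50 UMIs, 6.1% were higher by 2-fold. No connexin with 50 UMIs was lower by 2-fold, against 3.09% of all genes. cx43 was at 27.6 CPM in high and 46.8 CPM in low cells (log2 ratio -0.76, -0.93 to -0.59), and cx43.4 at 166 and 239 CPM (-0.53, -0.60 to -0.46). cx35.4 was at 1.60 and 1.75 CPM, with an interval that held 0. Fewer cells of a type and less RNA per cell cannot be told apart in these sums.

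The libraries also differed in their make-up, and its part in these differences was not tested. The xanthophore-like cluster was 13.6% of high and 3.30% of low cells. With the high library's level in each of clusters 0 to 8 weighted by the low library's mix, cx30.3 came to 61.0 CPM against 44.4 CPM, a log2 ratio of 0.46. For cx43.4 this gave 239 against 240 CPM (log2 -0.01), for cx43 40.04 against 47.1 CPM (-0.23), and for all connexins 348 against 339 CPM (0.04). With the low library's levels weighted by the high library's mix instead, all connexins were at 427 CPM in high against 379 CPM in low cells. That log2 ratio was 0.17, beside 0.41 for cx30.3, -0.04 for cx43.4 and -0.24 for cx43.

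Within clusters, 17 ratios had at least 20 UMIs, and the intervals of 8 left out 0 on the log2 scale. The same count over all genes is not given here, so 8 of 17 cannot be read as particular to connexins. In cluster 3 cx30.3 was higher in the high library, at a log2 ratio of 0.39 (0.27 to 0.52). In cluster 5 cx43 was lower, at -0.32 (-0.52 to -0.13), and in cluster 0 at -0.86 (-1.65 to -0.12), where its 22 high and 52 low UMIs came from 15 and 19 cells and 1 low cell held 12. cx30.3 in cluster 0 was at 2.55 (0.94 to 4.57), from 18 high and 4 low UMIs, and the values for gch2 in the same cells, 117 and 18.2 CPM, differed in the same direction. cx43.4 was lower in high cells of cluster 1 (-0.53, -0.74 to -0.33) and cluster 4 (-0.53, -0.85 to -0.22), and higher in cluster 2 (0.18, 0.01 to 0.36) and cluster 5 (0.23, 0.00 to 0.46). With TMM scaling factors, another way to set the libraries' totals, the ratios in clusters 2 and 5 held 0 (0.17, -0.01 to 0.34, and 0.16, -0.06 to 0.39). In cluster 1 the cells with at least 3 melanin UMIs were 220 of 435 in the high and 41 of 380 in the low library. Among cluster 1 cells with no melanin UMI, cx43.4 was at 148 CPM in high and 141 CPM in low cells. Cells vary more than counts drawn at random, so these intervals are narrower than replicate libraries would give.

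**Figure D5:**
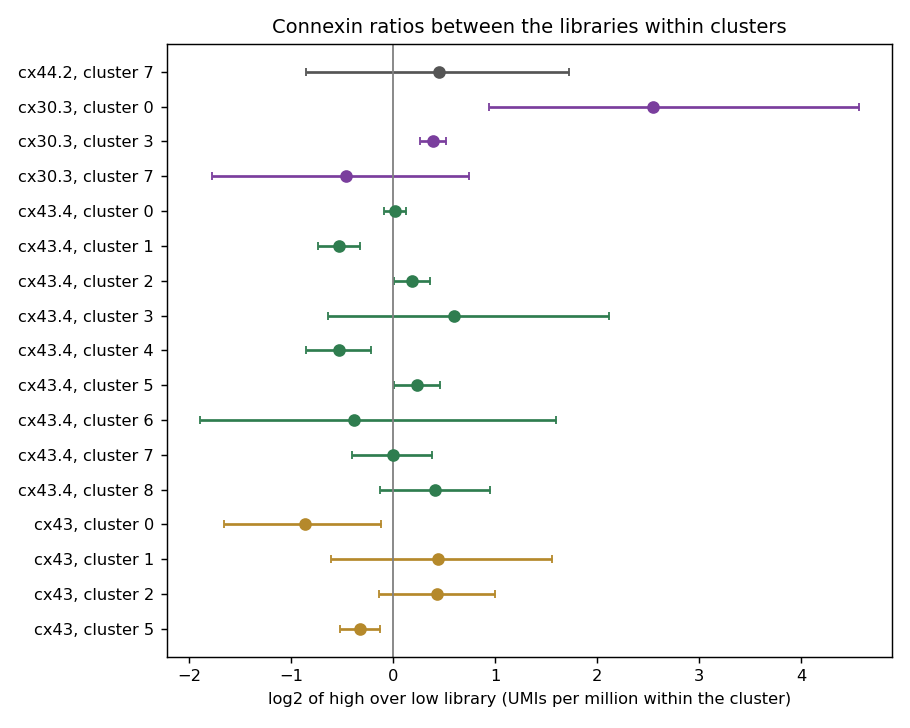
log2 ratio of the high over the low library within a cluster (x axis; CPM, points with exact conditional 95% intervals) for connexins with at least 20 UMIs there. cx30.3 in cluster 3 lay at 0.39 and cx43 in cluster 5 at -0.32, and the cx43.4 ratios lay on both sides of 0.

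Genes that act with or beside gap junctions were read from a list of 13. The pannexin genes, which form channels in single membranes, had 20 high and 10 low UMIs for panx1a, 6 and 12 for panx1b, none for panx2 and 2 and 0 for panx3. Of the 8 with at least 50 UMIs, 5 met the leading-cluster rule (beside 16.7% of all genes). These were kcnj13 in the melanophore-like cluster, tjp2b in the retina-like cluster, and tjp2a, tjp3 and aqp3a in the epidermis-like cluster. The ZO-1 scaffold genes tjp1a and tjp1b, whose products bind connexins, were found in every cluster, with tjp1a highest in cluster 2 at 144 CPM in high and 118 CPM in low cells. In the xanthophore-like cluster tjp1a was at 44.6 CPM in high and 60.6 CPM in low cells.

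kcnj13, the potassium channel gene of the obelix stripe mutant, was at 384 CPM in high and 485 CPM in low cells of the melanophore-like cluster, with 58.9 and 16.2 CPM in the xanthophore-like cluster. Over all cells it was at 66.6 CPM in high and 12.3 CPM in low cells, 5.43-fold apart. Among the listed genes with at least 50 UMIs it alone passed 2-fold, beside 6.1% of all such genes that were higher by 2-fold. In cluster 1 kcnj13 went with the melanin genes, at 56.4 CPM against 3.31 CPM in high cells and 58.7 against 3.24 CPM in low cells, opposite in direction to cx43.4. The water channel gene aqp3a was at 152 CPM in high and 78.7 CPM in low epidermis-like cells, and next in the xanthophore-like cluster at 14.6 and 26.6 CPM. The spermidine synthase gene srm was within 2-fold between libraries and had no leading cluster, and igsf11, the adhesion gene of the seurat mutant, had 8 high and 3 low UMIs.

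All 32 members had a name in the RefSeq gene table (assembly GRCz12tu, a later build than that of the counts, so its positions are not printed), and 16 lay directly beside another member among the protein-coding genes, as 9 neighbouring pairs. Neighbours could differ widely in counts. cx30.3 with 4622 UMIs lay beside the lens connexin gja3 with 2, and cx43 with 1179 lay beside cx32.2 with 4. cx35.4 and cx34.4 had 54 and 17 UMIs, and gja5b and gja8b had 15 and 7. The rule missed a row spelled GJE1 in capitals (2 high and 0 low UMIs) and si:dkey-91f15.1, which RefSeq calls gjc4a.2 (3 and 0).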

How the data were processed

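Libraries were made with the 10x Genomics single cell 3′ v3.1 kit and, per the labels' processing notes, processed with Cell Ranger 6.1.2 on GRCz11. The annotation release was not given in the sources used here. The deposited matrices hold raw counts (UMIs per gene and cell), and the cell table that the authors made with Seurat gives cluster numbers, the sorted fraction and the mitochondrial percent per cell, whose deposited values were read only as a check. The aggregated matrix holds 86.6% of the high library's UMIs and was used as an alternative. Here, counts were summed per library and cluster and divided by summed UMIs (CPM), with exact Poisson, Clopper-Pearson and conditional 95% intervals in Python 3.11.15 with scipy 1.17.1. Ratios needed 50 UMIs over all cells, or 20 within a cluster. No model was fitted across genes: a count test was planned for no result, since each group has 1 library. The interval and leading-cluster steps were run on simulated counts with Poisson spread, the spread that the intervals assume. This checked the code and could not show how the intervals hold for real cells. Alternatives used TMM factors (edgeR 4.0.16) and Scrublet scores (scanpy 1.11.5), which by its own threshold marked 7 high and 3 low cells, too few to rely on, so doublets stayed in.

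Members and gene lists were chosen with earlier results of these data known. Fully described were connexins with at least 50 UMIs that led a cluster, were among the highest 2 of a cluster or passed 2-fold between libraries, with cx43, cx39.4 and gja5b in any case. Splits by melanin genes in cluster 5 and by endothelial genes in cluster 2, the split by cx30.3 UMIs and the comparison with gch2 were added after seeing the data, as was the naming count for clusters.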

Additional observations from a re-analysis of the deposited data

Results flagged for a closer look

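cx43.4 differed between the libraries in opposite directions in different clusters. The log2 ratio of high over low was -0.53 in cluster 1 and -0.53 in the neuron-like cluster 4, and 0.18 in the mesenchyme-like cluster 2 and 0.23 in the retina-like cluster 5, with each interval of counting error on its own side of 0. The difference between clusters was not tested, since each group has 1 library. In cluster 1 the cells with at least 3 melanin UMIs were 220 of 435 high and 41 of 380 low cells. Among its cells with no melanin UMI, cx43.4 was at 148 CPM in high and 141 CPM in low cells. The part of this make-up in the ratio was not tested. With TMM factors the intervals of clusters 2 and 5 held 0 (0.17, -0.01 to 0.34, and 0.16, -0.06 to 0.39), while those of clusters 1 and 4 did not.

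Barcodes that the cell table left out, 231 in the high and 310 in the low library, also held cx30.3. It was at 460 CPM (411 to 514) in the left-out high barcodes and at 82.8 CPM (66.4 to 102) in the left-out low barcodes, against 226 and 44.18 CPM in the listed cells. The level of cx43 was 77.9 CPM in left-out high and 40.5 CPM in left-out low barcodes, against 27.6 and 46.8 CPM in the listed cells. For cx43.4 these values were 191 and 218 CPM, against 166 and 239 CPM. At least 3 cx30.3 UMIs were found in 32 of the high (13.9%) and 4 of the low barcodes (1.29%). The median depth of all left-out barcodes was 1160 UMIs in the high and 945 UMIs in the low library, and they held 680083 and 1062639 UMIs in all.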

How the results depend on the processing

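The leading clusters of cx30.3 and cx43, and the 2-fold difference of cx30.3 between libraries, held under every scaling, cell filter, UMI minimum and fold threshold that was run. At 20 UMIs cx44.2 also had a leading cluster, for 3 genes in place of 2 (18.5% of all genes). At 1.5-fold 1 connexin, cx43, was lower in the high library, beside 13.9% of all genes. The log2 ratio of summed connexins (0.34) was 0.47 with TMM factors, 0.50 with median-of-ratios factors and 0.24 with the mean of per-cell CPM. TMM and median-of-ratios factors shifted all log2 ratios over all listed cells by 0.13 and 0.16. Calls past 2-fold over all genes split into 948 higher and 278 lower, and 1011 and 257, against 750 and 380. Within clusters the TMM factors were set per cluster and library, so the shifts differed in size and sign. There cx30.3 in cluster 3 was at 0.55 in place of 0.39, and cx43.4 in cluster 1 at -0.60 in place of -0.53. Ratios within clusters whose intervals left out 0 numbered 6 of 17 with TMM factors and 8 without high Scrublet scores, again with no count over all genes. Without high Scrublet scores, cx43 in cluster 1 was at -1.20 in place of 0.44 and cx43.4 in cluster 3 at -0.61 in place of 0.60. In cluster 7 cx43.4, near 0, was at 0.12, and the intervals held 0 in each of these cases. The share of high cluster 3 cells with cx30.3 was 73.4% when cells were thinned to 2000 UMIs and 84.2% at 4000, and all shares were lower at 2000. Setting the melanin minimum at 10 UMIs gave log2 ratios of -1.53 and -1.39 for cx43.4 in cluster 1 and 3.20 and 2.88 for cx43 in cluster 5. No paired analysis was possible because each group had 1 library and no test was run. Depth limits the 28 connexins under 50 UMIs, whose levels rest on few cells.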
